A study of Sus scrofa with 85 samples.

Results

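The genes that peaked in the infarcted heart region 2 days after reperfusion were 100 of the 31907 genes in the count table. They were chosen by their own measured levels in apical micro-endomyocardial biopsies (micro-EMB, small catheter biopsies of the left ventricular wall). The level used throughout is log2(CPM + 1), where CPM is a gene's count scaled to a library total of 1000000. For each gene, the mean apical level at 2 d was set against the highest of the mean apical levels at baseline, 1-3 h and 14 d, and the difference is called the margin here. Genes with a mean 2 d level of at least 3 were ranked by margin, after leaving out genes whose blood mean exceeded the baseline mean by 3 or more, and genes with a Spearman correlation of 0.6 or more, over the usable heart libraries, with the mean level of 5 collagen genes (COL1A1, COL1A2, COL3A1, COL5A1 and COL6A3). These limits were met by 9302 genes, 2206 of them had a margin above 0, and the first 100 were taken. The margins of the members therefore describe the choice and were not tested.

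The study occluded the distal left anterior descending artery of 3 female mixed breed Yorkshire-Swedish farm pigs (swine 1640, 1644 and 5385) for 1 hour with a balloon and then let blood flow return. All 3 animals went through the infarction, so the only untreated samples are those taken before it. Biopsies of the infarcted (apical) and non-infarcted (lateral) left ventricle and blood were taken in 0-1 h (during occlusion), 1-3 h, 2 d and 14 d groups, and before occlusion (baseline). The baseline biopsies carry the label apical, although the region was not targeted then. The 85 libraries (62 heart, 23 blood) come from only 3 animals, so libraries of 1 swine are repeated samples of the same animal. The p-values below rest on the spread between libraries, part of which is technical.

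The members were chosen in usable libraries, those with at least 1000000 counts in which the 10 most abundant genes held 7% to 60% of the counts. There were 57 of these (29 apical, 16 lateral and 12 blood), with 3499443 to 16659110 counts each. In the apical region, 4 usable libraries remained at baseline, 5 at 0-1 h, 9 at 1-3 h, 4 at 2 d and 7 at 14 d. The 4 libraries at 2 d were 2 of swine 1640 (replicates 2 and 4), 1 of swine 1644 (replicate 1) and 1 of swine 5385 (replicate 6). The other 2 d apical libraries fell under the 7% limit and are described at the end.

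The library of swine 5385 at 2 d stood apart from the other 3. The study kept 3 apical libraries at 2 d for its own analysis and left out the library of swine 5385. It excluded samples for failed quality control, for blood contamination, or as outliers with raised collagen genes. The study took those outliers to come from fibrous parts of the heart. Its text does not say which reason applied to this library. The library of swine 5385 had 3832952 counts, the fewest of the 4. Its 10 most abundant genes held 46.7% of them, against 18.0% to 28.3% in the others. Cardiomyocyte markers were nearly missing from it. The 6 measured markers summed to 123.1 CPM there and to between 9907 and 16904 CPM in the other 3 libraries at 2 d. The cardiac troponin T gene TNNT2 had 28.7 CPM in it and 3442 to 5410 CPM in the others. A total of 5 of the 29 usable apical libraries had fewer than 1000 CPM of these markers, 1 in each apical group, and the other 24 had 5004 to 22532 CPM. Where a member's margin is printed, it is therefore also given without the 2 d library of swine 5385, at least if that moved it by over 1.5 times. In a bulk biopsy, more cells of a type and more RNA per cell cannot be told apart.

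The members with a known role fell mainly into the cell cycle. Dividing cells copy their DNA in S phase and separate the chromosomes in mitosis. E2F factors drive the genes of DNA replication at the start of S phase, and complexes with B-Myb act later on genes of mitosis. Many genes of mitosis carry a CCAAT box and a cell cycle genes homology region (CHR) in their promoters. In the infarcted heart, adult cardiomyocytes rarely divide, whereas fibroblasts, endothelial cells and leukocytes do in the first days. Lymphatic vessels, lined by endothelium that carries the receptor VEGFR3, drain fluid and cells from injured myocardium, and matricellular proteins such as tenascin C appear at the edge of infarcts.

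By role, 49 of the 100 members act in the cell cycle (14 in DNA replication and chromatin copying, 32 in mitosis and 3 as transcription factors), 8 are genes of endothelial cells and 6 encode matrix or secreted proteins. A further 18 members with a symbol have other roles, and 19 have no symbol and are given by their Ensembl identifiers. These roles were assigned after the values were seen. Margins ran from 2.04 to 0.84 with a median of 1.11, which is 2.16-fold on the CPM + 1 scale. At the limit, GALK1 (0.84) and KIF18A (0.84) were the last 2 members and MDK (0.83) and LDHA (0.83) the first 2 genes outside it.

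Among the cell cycle members, TOP2A, which encodes the topoisomerase that untangles DNA before mitosis, had a mean apical level of 5.48 ± 0.81 at 2 d (SD, n = 4). The 4 libraries at 2 d held 4.67 (swine 1644), 5.57 and 5.14 (swine 1640) and 6.56 (swine 5385). At baseline TOP2A lay at 3.36 ± 0.83 (n = 4), at 1-3 h at 2.55 ± 1.01 (n = 9) and at 14 d at 3.84 ± 0.88 (n = 7). The highest apical library at 14 d held 4.65. All 4 libraries at 2 d thus lay above all apical libraries of baseline, 1-3 h and 14 d, by a small distance for swine 1644. In the lateral region, libraries of swine 1644 held 5.72 at 1-3 h and 4.81 at 14 d, so the lateral range overlapped.

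UHRF1, which reads newly copied DNA and keeps its methylation, had the largest margin of the cell cycle members (1.85, and 1.33 without the library of swine 5385 at 2 d). Its level at 2 d was 4.47 in swine 1644, 4.57 and 4.83 in swine 1640 and 6.70 in swine 5385. One library at 1-3 h reached 4.63, so the groups overlapped. POLE, the catalytic subunit of the leading-strand DNA polymerase, held 3.59 in swine 1644, 4.31 and 4.06 in swine 1640 and 6.25 in swine 5385, while single libraries at 14 d and 1-3 h reached 4.24 and 4.33. Its margin was 1.62, and 1.06 without swine 5385 at 2 d. RECQL4, a helicase used when replication starts, held 2.69, 3.21 and 2.75 in those 3 libraries and 4.53 in swine 5385. No baseline, 1-3 h or 14 d apical library exceeded 2.45. At 0-1 h, which the rule did not use, an apical library of swine 5385 held 3.26, so RECQL4 overlapped that group.

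The helicase that opens DNA for replication is built of MCM subunits, and MCM2, MCM3, MCM4 and MCM5 were members with margins of 1.28, 1.36, 1.23 and 1.10. Without the library of swine 5385 at 2 d these margins were 0.73, 1.00, 0.75 and 0.67. MCM2 held 3.61 in swine 1644, 3.63 and 4.05 in swine 1640 and 5.93 in swine 5385. ORC1 and TICRR, which load and fire replication origins, had margins of 1.22 and 1.36, and of 0.81 and 0.81 without it. The 3 transcription factors were E2F1 (margin 1.29), MYBL2, which encodes B-Myb (1.31), and the repressor E2F7 (0.85). Without swine 5385 at 2 d their margins were 1.01, 0.69 and 0.50. E2F1 lay at 2.52 in swine 1644, 3.64 and 2.64 in swine 1640 and 4.08 in swine 5385, with single 14 d libraries at 2.64 and 2.55.

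The 32 mitosis members cover the kinetochore (BUB1, NDC80, CENPE, CENPF, KNTC1), spindle motors (KIF11, KIF15, KIF20A), mitotic kinases (CDK1, PLK1, TTK) and the exit from mitosis (CDC20, ESPL1). Their median margin was 1.13 and their median level at 2 d was 3.71, against 2.31 at baseline. BUB1, a kinase of the spindle checkpoint, held 2.75 in swine 1644, 3.44 and 3.01 in swine 1640 and 3.76 in swine 5385, although single libraries at 1-3 h and 14 d reached 3.79 and 3.12. CENPF, which binds the kinetochore, held 5.66 in swine 1644, 5.96 and 5.71 in swine 1640 and 7.10 in swine 5385, all above the highest other apical library of the groups compared (5.36 at 14 d).

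**Figure D1:**
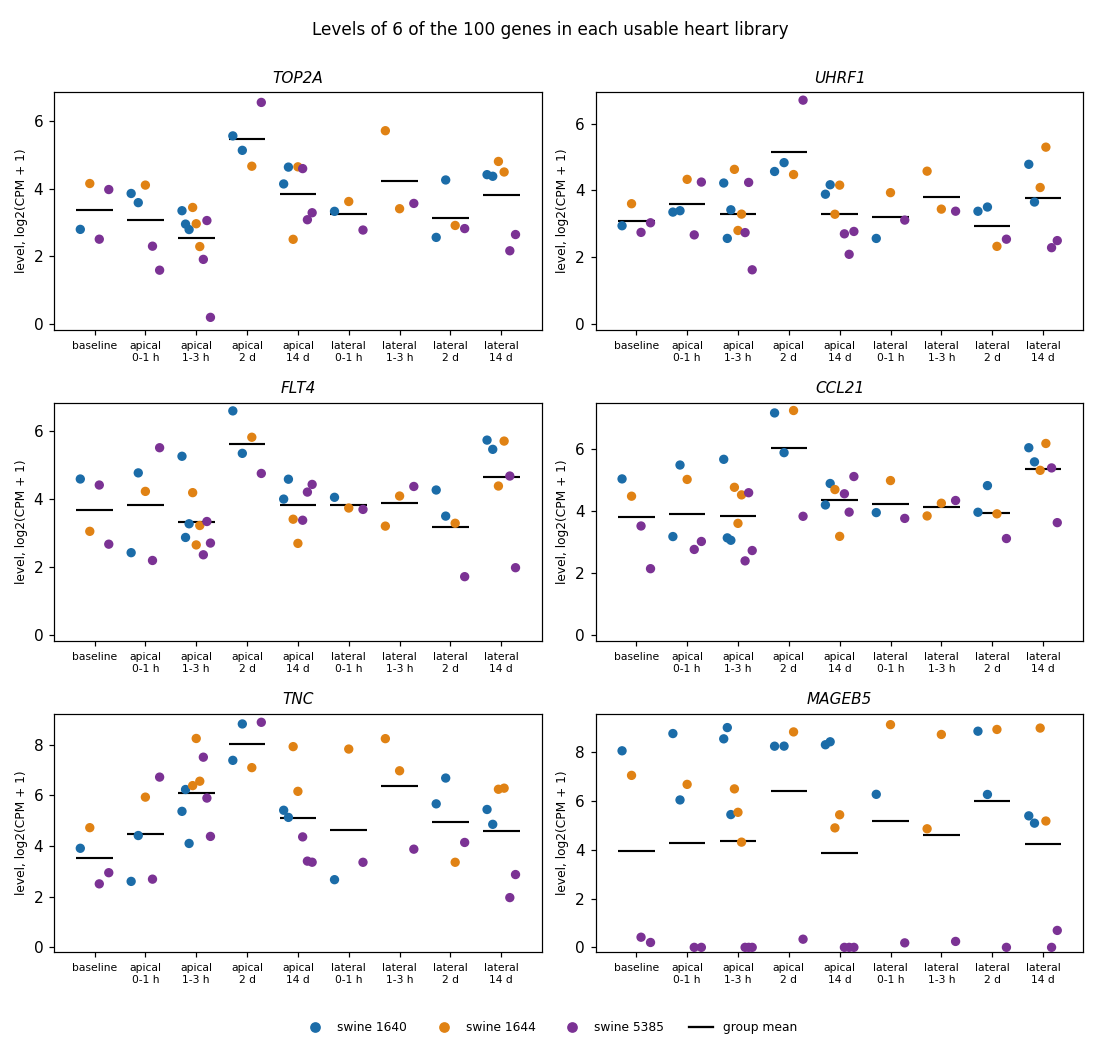
Level of 6 members in every usable heart library, as log2(CPM + 1), by region and timepoint, with points coloured by swine and a bar at the group mean. TOP2A and UHRF1 were highest in the apical library of swine 5385 at 2 d (6.56 and 6.70), FLT4 and CCL21 were lower there (4.76 and 3.84) than in the other 3 apical libraries at 2 d, and MAGEB5 was at or below 0.69 in all libraries of swine 5385.

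Swine 5385 weighed heavily in the cell cycle group. Its 2 d library held the highest of the 4 values for all 49 cell cycle members, and the library of swine 1644 the lowest for 39. The mean level of the 49 genes was 5.13 in that library, against 3.35 in swine 1644 and 4.02 and 3.71 in swine 1640. In the 7 usable apical libraries at 14 d the mean ran from 1.97 to 3.74, in the 9 at 1-3 h from 1.32 to 3.73 and in the 4 at baseline from 2.14 to 3.03. Only the library of swine 5385 and 1 of swine 1640 (4.02) therefore lay above all of these, while 3.71 and 3.35 fell inside the ranges. The other 4 apical libraries low in cardiomyocyte markers had cell cycle means of 2.07 to 3.03. The part of the missing cardiomyocyte transcripts in the high mean of swine 5385 was not tested.

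**Figure D2:**
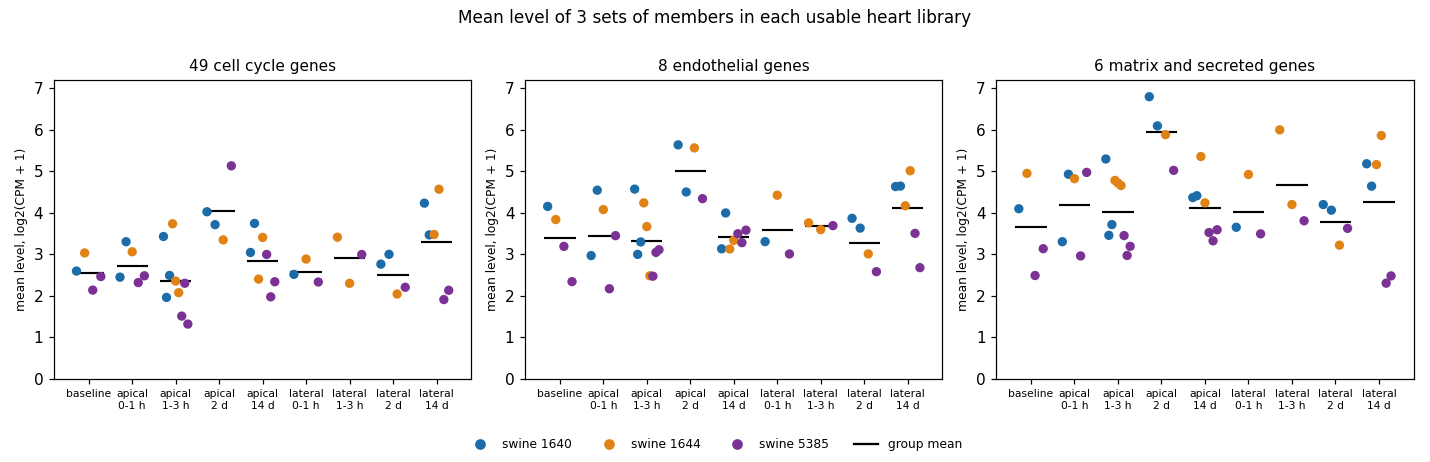
Mean level, log2(CPM + 1), over the 49 cell cycle, 8 endothelial and 6 matrix and secreted members in each usable heart library, by group, with points coloured by swine and a bar at the group mean. At 2 d in the apical region, swine 5385 had the highest cell cycle mean (5.13) and the lowest endothelial (4.34) and matrix (5.02) means.

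Without that library, all 100 members kept a margin above 0, but the sizes changed by group. The median margin fell to 0.89 for all members and to 0.81 for the cell cycle members, while it was 1.51 for the endothelial and 1.77 for the matrix and secreted members. The rule run without it found 51 of the 100 again, 20 of the 49 cell cycle members, 7 of the 8 endothelial and all 6 matrix and secreted members. When all 5 libraries low in cardiomyocyte markers were left out, an alternative added after the values were seen, 45 of the 100 and 16 of the 49 were found again. The composition of the list, with cell cycle genes at 49 of 100, thus rests in large part on 1 library.

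Within each animal, the 2 d level was also set against the highest mean of the other 3 timepoints of that animal. This margin was above 0 in all 3 swine for 55 members, in 2 for 42 and in 1 for 3, where 1.57% of the 9302 genes that met the limits had it in all 3. The rule selected on the pooled version of the same values, so these counts are a description. Swine 5385 had 97 members above 0, swine 1640 had 93 and swine 1644 had 62. Of the 49 cell cycle members, 30 were above 0 in all 3 swine.

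**Figure D3:**
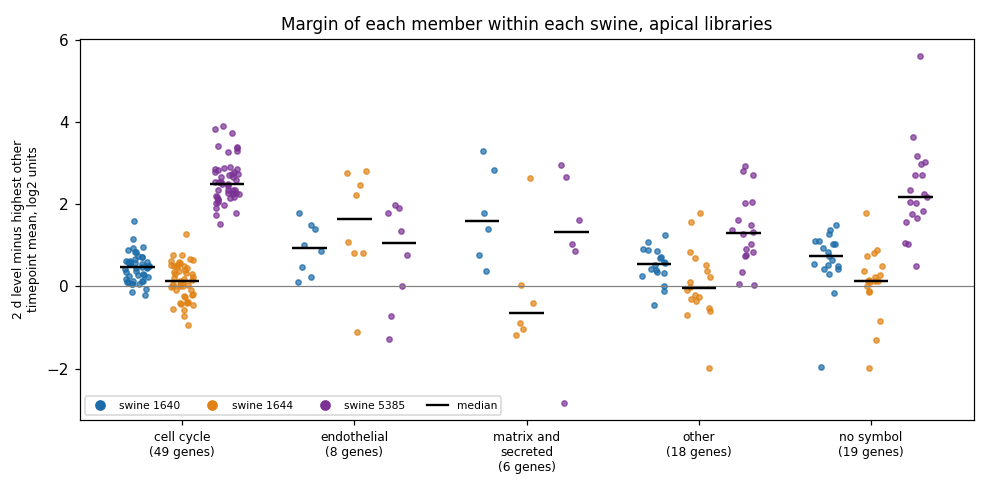
Margin at 2 d within each swine for each of the 100 members, in log2 units, by role, with a bar at the median and a line at 0. Cell cycle margins were far higher in swine 5385 than in the other 2, while among the 8 endothelial members swine 1644 had the highest median and 2 lay below 0 in swine 5385.

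All 4 libraries at 2 d lay above all apical libraries of baseline, 1-3 h and 14 d for 10 members, which are all the genes with that pattern among the 9302 (0.108%). They were TOP2A, CENPF, PLK1 (the kinase that organises the spindle), RECQL4, GALK1 (galactokinase) and the unnamed ENSSSCG00000026302, ENSSSCG00000036469, ENSSSCG00000037929, ENSSSCG00000030642 and ENSSSCG00000033606. Since the choice of members used the same libraries, nothing is read from this count. The 0-1 h and lateral libraries did not enter it. Some of these distances were small. ENSSSCG00000026302 held 6.26 in swine 1644, 7.16 and 6.20 in swine 1640 and 8.25 in swine 5385, and 1 library at 14 d held 6.16.

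The members share a time pattern by the choice itself, so the promoter motifs below only describe them. The stretch before their gene starts was read from the RefSeq annotation of Sscrofa11.1, the build the reads were mapped to. It was available for 77 of the 100 members, 47 of them cell cycle genes. The 250 bases upstream of the gene start are shown for the 3 replication and the 3 mitosis members with the largest margins, on the strand of the gene, 5′ to 3′, with every match to a searched motif in capitals.
UHRF1: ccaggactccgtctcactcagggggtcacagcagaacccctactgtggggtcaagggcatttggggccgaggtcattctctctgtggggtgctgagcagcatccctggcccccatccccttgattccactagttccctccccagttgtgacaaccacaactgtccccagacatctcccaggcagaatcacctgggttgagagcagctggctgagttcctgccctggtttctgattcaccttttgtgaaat
POLE: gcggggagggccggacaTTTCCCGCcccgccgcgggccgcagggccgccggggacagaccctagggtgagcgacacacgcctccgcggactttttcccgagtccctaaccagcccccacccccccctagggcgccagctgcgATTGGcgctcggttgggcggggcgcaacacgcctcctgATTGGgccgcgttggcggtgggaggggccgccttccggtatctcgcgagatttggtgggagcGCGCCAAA
RECQL4: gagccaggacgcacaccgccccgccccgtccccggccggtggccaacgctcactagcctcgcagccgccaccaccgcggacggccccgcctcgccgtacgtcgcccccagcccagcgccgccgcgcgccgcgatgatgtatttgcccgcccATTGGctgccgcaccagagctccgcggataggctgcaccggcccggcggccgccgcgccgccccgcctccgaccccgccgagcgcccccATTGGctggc
TOP2A: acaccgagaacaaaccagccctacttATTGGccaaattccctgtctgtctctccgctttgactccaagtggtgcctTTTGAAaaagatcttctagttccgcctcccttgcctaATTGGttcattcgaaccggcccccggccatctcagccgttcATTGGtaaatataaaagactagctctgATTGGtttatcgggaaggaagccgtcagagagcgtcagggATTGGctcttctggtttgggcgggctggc
BUB1: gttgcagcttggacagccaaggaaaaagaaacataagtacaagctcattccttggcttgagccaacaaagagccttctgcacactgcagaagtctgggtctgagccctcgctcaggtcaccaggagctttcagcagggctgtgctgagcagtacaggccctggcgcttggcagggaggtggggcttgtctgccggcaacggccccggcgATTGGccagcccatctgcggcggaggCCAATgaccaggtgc
CENPF: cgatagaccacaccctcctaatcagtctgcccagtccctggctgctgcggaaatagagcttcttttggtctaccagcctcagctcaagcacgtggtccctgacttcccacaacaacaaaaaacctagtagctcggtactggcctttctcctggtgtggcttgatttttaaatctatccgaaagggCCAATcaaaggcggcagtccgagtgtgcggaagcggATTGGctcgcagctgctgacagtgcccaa
The windows lie at chr2:73937728-73937977 (UHRF1, minus strand), chr14:22797896-22798145 (POLE, plus), chr4:286956-287205 (RECQL4, plus), chr12:22001050-22001299 (TOP2A, plus), chr3:45584938-45585187 (BUB1, plus) and chr9:129012242-129012491 (CENPF, minus). The capitals mark CCAAT (the CCAAT box), TTTGAA (the CHR) and TTTCCCGC or TTTGGCGC (E2F), searched on both strands, so a match can also read as the reverse complement. None of these motifs contains another.

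TOP2A had 5 CCAAT boxes and 1 CHR in its window, POLE 2 CCAAT boxes and 2 E2F matches, and RECQL4, BUB1 and CENPF 2 CCAAT boxes each, while UHRF1 had no match. A CCAAT box was found in the windows of 57.4% of the 47 cell cycle members, 33.3% of the 30 other members and 31.9% of all 19531 protein-coding genes with a window. A CHR stood in 10 of the 32 mitosis members, in 0 of the 12 replication members and in 12.5% of all genes, but also in 23.3% of the members outside the cell cycle, about as often as in the cell cycle members as a whole (23.4%). Both together stood in 25.0% of the mitosis members and 4.19% of all genes. An E2F match stood in 4 of the 47 cell cycle members (8.51%) and in 1.98% of all genes. By role, it stood in 1 of the 12 replication members and 3 of the 32 mitosis members. A match of letters is not a bound site, and these shares depend on where the annotation places the gene start.

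The endothelial members included 3 genes of lymphatic endothelium. FLT4, at chr2:78076008-78115137, encodes the lymphatic growth factor receptor VEGFR3. Its level at 2 d was 5.83 in swine 1644, 6.61 and 5.35 in swine 1640 and 4.76 in swine 5385, a mean of 5.64 ± 0.78 (SD, n = 4). At baseline it lay at 3.68 ± 0.97 (n = 4), at 1-3 h at 3.32 ± 0.90 (n = 9) and at 14 d at 3.82 ± 0.68 (n = 7). The groups overlapped through 1 library at 1-3 h (5.27) and the low value of swine 5385. Outside these groups, FLT4 reached 5.52 at apical 0-1 h and 5.74 at lateral 14 d. Within each swine the margin of FLT4 was 1.39 in 1640, 2.48 in 1644 and 0.75 in 5385.

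CCL21, at chr10:32093783-32094482, is the chemokine with which lymphatic vessels attract leukocytes. It held 7.26 in swine 1644, 7.18 and 5.89 in swine 1640 and only 3.84 in swine 5385. In the apical groups of baseline, 1-3 h and 14 d no library exceeded 5.68, so the first 3 libraries lay above all of them and the fourth lay well inside. Lateral 14 d libraries reached 6.19 and 6.05, above the 5.89 of swine 1640. MMRN1, a secreted protein of lymphatic endothelium and platelets, held 4.90 in swine 1644, 4.46 and 4.71 in swine 1640 and 1.20 in swine 5385. It was also lowest in swine 5385, but 1 library at 1-3 h held 4.76, so the groups overlapped. Without swine 5385 at 2 d the margins of FLT4, CCL21 and MMRN1 were larger, at 2.11, 2.40 and 2.32, against 1.82, 1.66 and 1.45 with it.

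The other 5 endothelial members were PROCR (the protein C receptor, margin 1.49), SELP (P-selectin, which catches leukocytes, 1.19), TFPI (an inhibitor of clotting, 1.10), CALCRL (the receptor for adrenomedullin, 1.00) and PLVAP (a protein of endothelial diaphragms, 0.90). Without swine 5385 at 2 d they were 1.36, 0.94, 1.65, 0.92 and 0.70. PROCR held 5.14 in swine 1644, 3.25 and 1.73 in swine 1640 and 3.89 in swine 5385, and overlapped the other groups. Of the 8 genes, 5 had a margin above 0 in all 3 swine, and swine 5385 held the lowest value for 4. General endothelial markers did not join the list. All 5 that were measured (PECAM1, CDH5, KDR, TEK and CLDN5) had a margin above 0, with a median of 0.27, and the highest was 0.35 (PECAM1). Their summed level ran from 746 to 1429 CPM at 2 d and from 676 to 1131 CPM at baseline, 69.6 to 975 CPM at 1-3 h and 102 to 606 CPM at 14 d. Their part in the result was not tested.

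TNC, at chr1:255533235-255630381, encodes tenascin C and had a margin of 1.97, and of 1.69 without swine 5385 at 2 d. It held 7.10 in swine 1644, 7.39 and 8.83 in swine 1640 and 8.89 in swine 5385, a mean of 8.05 ± 0.94 (n = 4), against 3.52 ± 1.00 at baseline. At 1-3 h it already had a mean of 6.08 ± 1.34 (n = 9), with single libraries at 8.25 and 7.51, and 1 library at 14 d reached 7.93. Within swine 1644 the margin was only 0.03.

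CILP, a protein of the cardiac matrix, at chr1:163236864-163271222, held 7.28 in swine 1644, 6.93 and 8.87 in swine 1640 and 2.70 in swine 5385. The first 3 lay above every apical library of baseline, 1-3 h and 14 d (6.29 at most), whereas the value of swine 5385 lay below all 4 baseline libraries (3.32 at least). In the lateral region, a 14 d library of swine 1644 held 7.44, above 7.28 and 6.93. The margin of CILP within swine was 3.29 in 1640, 2.63 in 1644 and -2.84 in 5385. Without the library of swine 5385 at 2 d the pooled margin of CILP rose from 1.43 to 2.68. CXCL14, a chemokine, held 2.75, 5.33, 1.35 and 3.05 (swine 1644, 1640, 1640, 5385) and reached 3.93 in a baseline library, so the groups overlapped despite a margin of 1.82. COL8A1 (collagen VIII, margin 0.91), TLL1 (a protease that processes procollagen) and SCUBE1 (a secreted protein of endothelium and platelets, 0.89) completed this group. Only 1 of these 6 genes, TNC, had a margin above 0 in all 3 swine.

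Of the 5 genes the study plotted for 2 days, TNC and CILP were members. That list was drawn from these same samples. FN1 (fibronectin) had a margin of 1.35 but a Spearman correlation of 0.87 with the collagen genes, past the limit of 0.6. FAM111A, a protease active at replication forks, had a mean of 5.56 at 2 d and a margin of -0.37. For ENSSSCG00000014997 the 4 libraries at 2 d held 4.25, 4.91, 5.20 and 4.06, while a 1-3 h library held 6.19.

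The largest margin of all belonged to MAGEB5, a gene of the melanoma antigen family, and here the animals differed more than the timepoints. Over the usable heart libraries it ran from 5.08 to 9.00 in swine 1640 (n = 15), from 4.31 to 9.12 in swine 1644 (n = 14) and from 0 to 0.69 in swine 5385 (n = 16), where 10 libraries had no count. At 2 d it held 8.82 in swine 1644, 8.24 and 8.24 in swine 1640 and 0.33 in swine 5385. Swine 5385 gave 1 of the 4 libraries at 2 d but 2 of 4 at baseline, 3 of 9 at 1-3 h and 3 of 7 at 14 d, and within swine the margin was -0.12 in 1640, 1.78 in 1644 and 0.03 in 5385. Its pooled margin was 2.04 with the 2 d library of swine 5385 and 4.07 without it.

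The 19 genes without a symbol had a median margin of 1.10, and 17 were highest in swine 5385 at 2 d. ENSSSCG00000036779 held 10.20 in that library and 4.10, 5.47 and 4.69 in the other 3. Its margin was 1.68 with that library and 0.32 without it. The 18 members with other roles had a median margin of 0.97 and included LMNB1 (a lamin of the nuclear envelope, 1.21), TUBA1B (a tubulin, 0.96), NR2F1 (a nuclear receptor, 1.08) and RAB13 (a small GTPase, 0.96).

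Lists of genes for the surrounding biology were read beside the members. Of 29 measured cell cycle genes, 15 were members and 26 had a margin above 0 (median 1.01). BUB1B was kept out by its blood level. TK1 was past the blood limit too, but its margin (0.58) also lay below that of the last member (0.84). ANLN and BIRC5 were listed at 0 in every library. Of 37 genes of the extracellular matrix, 3 were members and 26 had a margin above 0 (median 0.43). The limit on the correlation with the collagen genes was not met by 23, some of which had none because they were listed at 0. Of these 23, only FN1 (1.35), COL1A1 (1.12), COL1A2 (1.07) and CTHRC1 (0.93) had a margin above that of the last member. None of the 10 immediate early genes (median -3.28) and none of the 6 cardiomyocyte markers (median -1.00) had a margin above 0. Among 17 macrophage and monocyte markers 10 did (median 0.05), but none was a member. These sums ran from 592 to 950 CPM at 2 d and from 533 to 1834 CPM at baseline, with 3 markers at 0 in all of these libraries.

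Fibroblast markers were read in the same way. Of 7 such genes 6 had a margin above 0 (median 0.57), and these 6 were past the limit on the correlation with the collagen genes, 3 of which are themselves on this list, so none could be a member. Their sum was 24240 CPM in swine 1644, 20780 and 15553 CPM in swine 1640 and 14447 CPM in swine 5385 at 2 d. The cell cycle mean had its ends the other way round, with 3.35 in swine 1644 and 5.13 in swine 5385. The fibroblast sum ran from 2566 to 39787 CPM at baseline (median 6792), from 1271 to 83631 CPM at 1-3 h (median 3531) and from 3826 to 63152 CPM at 14 d (median 6985), with no marker at 0 in all libraries of a group. The medians were thus lower than at 2 d although the ranges overlapped, and the part of these markers in the levels of the matrix and cell cycle members was not tested. None of the interferon response (4 of 9 with a margin above 0), cytokine and chemokine (1 of 13), cardiac stress (1 of 7), smooth muscle (2 of 4), red cell (0 of 3), neutrophil (2 of 5) or lymphocyte genes (2 of 8) was a member.

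Many members were more abundant in blood than in the infarcted region. The blood mean exceeded the apical 2 d mean for 52 of the 100, among them 37 of the 49 cell cycle members and none of the endothelial or matrix members. The same count over all genes was not made, and the rule itself limited the blood mean, so nothing is read from these counts. For TOP2A the blood mean was 5.07 and for KIF11 5.87, against 5.48 and 4.49 in the apical region at 2 d. Lymphocyte markers, 8 genes, summed to 470 to 665 CPM in blood at 2 d and to 7.69 to 17.7 CPM in the apical libraries at 2 d, where 1 of the 8 was at 0 in all. The neutrophil markers, 5 genes, summed to 6.07 to 20.3 CPM in these apical libraries and to 453 to 671 CPM in blood. The red cell markers, 3 genes, went less clearly this way. They summed to 16.6 to 4401 CPM (median 32.5) in the apical libraries at 2 d and to 4662 to 6337 CPM in blood at 2 d. Their sum also reached 4078 CPM at baseline. The part of blood in the 2 d levels was not tested.

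Tests were made only on contrasts that the choice of members had not used. The first asks whether the members also stood higher at 2 d than at 14 d in the non-infarcted lateral region (4 against 6 usable libraries). None of the 100 members and none of the 18185 genes tested was called by edgeR's quasi-likelihood test at an adjusted p of at most 0.05 (0% of genes), and 1107 genes, 6.09%, had an unadjusted p under 0.05. DESeq2 called 4 genes and no member. On the log2 scale the fitted change was below 0 for 81 of the 100 members, with a median of -0.59, against a median of -0.04 and 47.1% above 0 over all genes tested. Of the members, 16 had an unadjusted p under 0.05, all lower at 2 d.

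By mean level, 10 of the 100 members were higher at lateral 2 d than at lateral 14 d. For the cell cycle members the median change was -0.70 (46 of 49 below 0), and for the fixed cell cycle list -0.60 (23 of 27 tested below 0, 0 called). The endothelial members had a median of -0.85 and the matrix and secreted members of -0.63.

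RACGAP1, which positions the cleavage furrow, had the smallest p of the members. Its lateral levels at 2 d lay between 1.24 (swine 1644) and 2.30 (swine 1640), and at 14 d they were 3.04 and 4.69 (1644), 4.14 and 3.54 (1640) and 1.35 and 2.41 (5385). The groups overlapped through swine 5385. The fitted change was -1.54 ± 0.58 (log2, SE, edgeR, unadjusted p = 0.0163, adjusted p = 0.62). KIF14, a mitotic motor, changed by -1.37 ± 0.56 (edgeR, unadjusted p = 0.0236, adjusted p = 0.62) and SCUBE1 by -1.71 ± 0.74 (edgeR, unadjusted p = 0.0318, adjusted p = 0.62).

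The libraries at lateral 14 d differed in more than timepoint. In 3 of the 6 the 10 most abundant genes held 11.7% to 15.4% of counts, against 22.4% to 32.5% in the lateral libraries at 2 d, and these 3 held cell cycle means of 4.57, 4.23 and 3.47. Among libraries with a share of at least 16% (4 against 3, an alternative added after seeing the data), 65 of the 100 members had a change below 0 with a median of -0.18, none had an unadjusted p under 0.05, and SCUBE1 turned to 0.16. At lateral 14 d, the 16% limit kept replicate 1 of swine 1644, with a share of 23.2% and a cell cycle mean of 3.48. It also kept replicates 4 and 5 of swine 5385, with means of 1.91 and 2.13. Replicates 3 and 6, the lateral 14 d libraries of swine 1640, were left out, so the animals changed along with the share. The parts of share and animal in the lateral difference were not tested further.

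**Figure D4:**
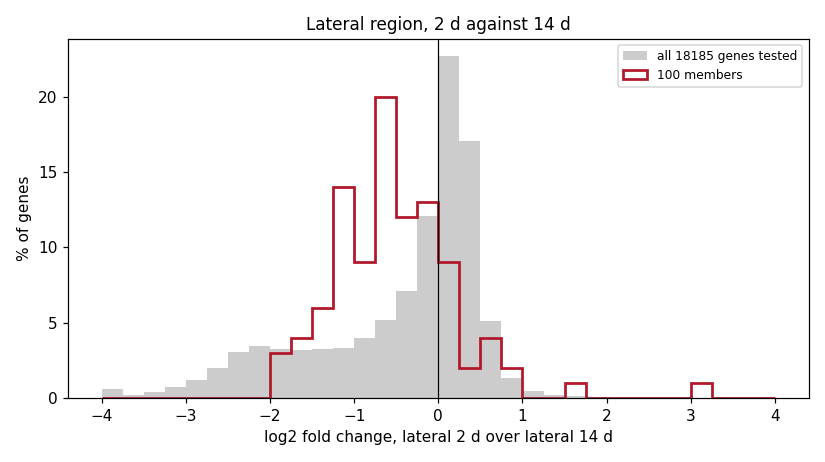
Distribution of the fitted log2 fold change, lateral 2 d over lateral 14 d, for all 18185 genes tested (grey, values beyond the axis placed in the end bins) and for the 100 members (red outline), as percent of genes. The members lie mostly below 0 (81 of 100), while 47.1% of all genes lie above it.

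In the same fit, lateral 2 d was compared with lateral 0-1 h (4 against 3 libraries). No member and no gene was called by edgeR (0% of 18185), with 434 genes and 2 members at an unadjusted p under 0.05, and DESeq2 called 9 genes and no member. Members split into 40 above and 60 below 0 with a median of -0.12, against -0.05 for all genes. The smallest p belonged to ENSSSCG00000036779 (-3.45 ± 1.03, edgeR, unadjusted p = 0.00344, adjusted p = 1.00), NDC80 (-2.27 ± 0.75, edgeR, unadjusted p = 0.00693, adjusted p = 1.00) and SELP (-2.09 ± 1.01, edgeR, unadjusted p = 0.052, adjusted p = 1.00). Without the 0-1 h library of swine 1644, 68% of the members were above 0. The 3 named genes also rested on the 0-1 h library of swine 1644, which held 8.68, 5.01 and 5.39 where the other 2 libraries held 3.31 to 4.64, 1.81 to 2.00 and 1.24 to 1.65.

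During occlusion, the apical and lateral regions were compared at 0-1 h (5 against 3 libraries) to ask whether members differed by region before 2 d. No member and no gene was called by edgeR (0% of 17963), and DESeq2 called none either, with 67 genes and 1 member at an unadjusted p under 0.05. The median change of the members was 0.12 (56 above 0), against 0.04 for all genes. ENSSSCG00000036779 was lower in the apical region by the same single lateral library (-3.75 ± 0.94, edgeR, unadjusted p = 0.00245, adjusted p = 1.00). BUB1 (1.52 ± 0.72, edgeR, unadjusted p = 0.0618) and NDC80 (-1.65 ± 0.84, edgeR, unadjusted p = 0.0781) came next.

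In blood, 96 of the 100 members passed the filter on low counts. Between 2 d and 14 d (4 against 5 libraries) none was called, nor was any of 18956 genes, by edgeR (0%), and 1214 genes and 9 members had an unadjusted p under 0.05. DESeq2 called 1 gene and no member. Members had a median change of 0.16 (65 above 0), against 0.08 for all genes, and 7 of the 9 were higher at 2 d. Without 1 blood library at 2 d (replicate 4) only 33.3% of the members were above 0, so no direction is drawn from the split. TICRR held 4.44, 3.87, 4.73 and 3.66 in blood at 2 d and 3.07, 3.12, 3.01, 3.86 and 2.83 at 14 d, a change of 1.00 ± 0.34 (edgeR, unadjusted p = 0.00964, adjusted p = 0.707). ENSSSCG00000039071 was lower at 2 d (-0.70 ± 0.22, edgeR, unadjusted p = 0.00518, adjusted p = 0.707). CCL21 was higher by 0.79 ± 0.29 (edgeR, unadjusted p = 0.0147, adjusted p = 0.707), with 4.10 to 5.24 at 2 d and 2.89 to 4.02 at 14 d, so its values did not overlap.

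Finally, apical 2 d was compared with apical 14 d in libraries that the rule had not used (5 against 2 libraries). In these the 10 most abundant genes held under 7% of counts, so they failed the limit for usable libraries. Their profiles were nearly the same at every region and timepoint, as described below. The comparison therefore cannot decide whether the members changed, and no conclusion is drawn from it. No member and none of 23738 genes was called by edgeR (0%) or DESeq2, and 723 genes and 1 member had an unadjusted p under 0.05. The median change of the members was 0.03, with 55 above 0, against 0.01 for all genes. TOP2A held 3.70 to 4.41 at 2 d and 3.92 and 4.23 at 14 d. FLT4 held 5.02 to 5.48 at 2 d and 5.44 and 5.40 at 14 d. TNC ran from 6.48 to 7.37 at 2 d, with 6.48 and 6.46 at 14 d. The smallest p values were those of TONSL, a replication repair protein (-0.35 ± 0.15, edgeR, unadjusted p = 0.0394, adjusted p = 1.00), GALK1 (-0.39 ± 0.21, edgeR, unadjusted p = 0.0865) and INCENP, a scaffold of the Aurora B complex (-0.16 ± 0.09, edgeR, unadjusted p = 0.11).

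Libraries of this kind had nearly the same profile whatever their region and timepoint. Over all 15 heart libraries under the 7% limit, shares ran from 1.42% to 6.33%, and the mean level of the 49 cell cycle members lay between 4.64 and 4.90, that of the 8 endothelial members between 4.80 and 5.11 and that of the 6 matrix and secreted members between 5.70 and 6.34. These levels were above those of nearly all usable libraries. Among usable heart libraries, the lateral 14 d library with the lowest share (11.7%) had a cell cycle mean of 4.57, but the order was loose, with 2.07 in an apical 1-3 h library at 22.0% and 3.00 in a lateral 2 d library at 30.6%. Swine 5385 at apical 2 d combined the highest share of these (46.7%) with the highest mean (5.13). The 2 d libraries of swine 1640 had shares of 20.4% and 18.0% and that of swine 1644 28.3%. The part of this share in the 2 d levels was not tested.

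**Figure D5:**
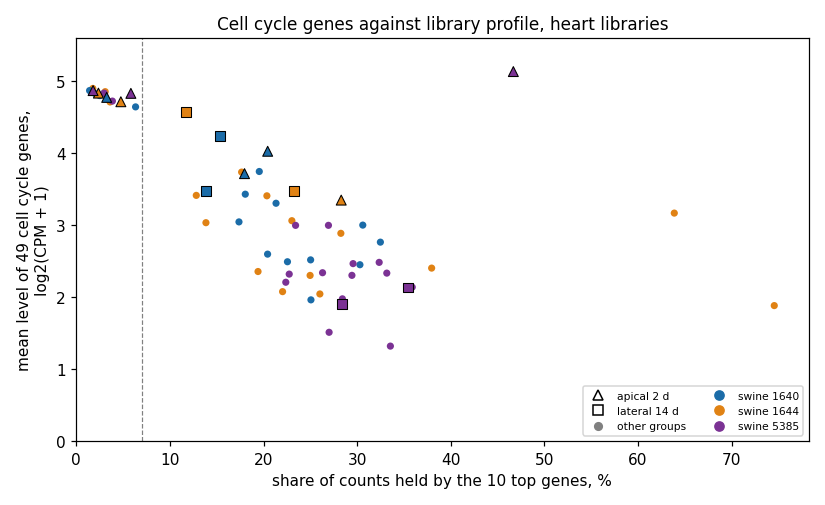
Mean level of the 49 cell cycle members, log2(CPM + 1), against the share of counts held by the 10 most abundant genes, in percent, for all heart libraries with at least 1000000 counts, with apical 2 d as triangles, lateral 14 d as squares and a dashed line at 7%. Libraries left of the line lie between 4.64 and 4.90, and the apical 2 d library of swine 5385 lies alone at 46.7% and 5.13.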

How the data were processed

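The authors sequenced micro-EMB and blood RNA with the SMARTer Pico kit for total RNA, mapped reads to Sscrofa11.1 with STAR and assigned them to genes with featureCounts, per the labels and file headers without regard to strand. They deposited raw counts per Ensembl gene for 85 libraries, which were used as deposited. Overlapping and antisense genes cannot be told apart in such counts. Symbols were available for 15029 genes. Versions of these tools are not given in the sources used here.

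Levels were log2(CPM + 1). Tests used edgeR 4.0.16 (TMM, quasi-likelihood, timepoint or region as the only term, CPM of at least 1 in 20% of the libraries of a fit, Benjamini-Hochberg over all genes tested) in R 4.3.3. The lateral fit also held the usable baseline libraries, and the blood fit all usable blood libraries. On simulated counts with 200 genes changed by 3 log2 units, 68.5% were recovered for lateral 2 d versus 14 d (18185 genes) and 98.5% for the apical libraries the rule did not use (23738 genes). The simulation took its spread from the libraries of each fit. Those behind the 98.5% had nearly the same profile, so this value does not measure the power to find a 2 d change in tissue. DESeq2 1.42.0, limma 3.58.1, other scaling, no filter, leaving out libraries, sums per swine and a swine block were tried. Swine numbers name animals, so they pair the libraries. Deviations of libraries of the same swine in different groups correlated by 0.11 on average in the lateral fit and 0.06 in blood. Adding the block changed no call.

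The members, lists and roles were chosen with earlier results of these data known. The text names the 10 members with a symbol and the largest margin, members on the lists, the 3 smallest p of each comparison, the genes the study plotted for 2 days and the genes at the rank limit. Other members were named after their values were seen.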

Additional observations from a re-analysis of the deposited data

Results flagged for a closer look

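Among 105 groups of 4 to 9 library values looked at (3 role means and 12 named genes), 5 had 1 library whose gap to the next exceeded Dixon's 95% limit. Independent groups would give about 1 in 20 by chance, but these groups share libraries and animals, so that rate does not apply directly. At apical 2 d, MAGEB5 in swine 5385 stood far below the other 3 libraries, at 0.33 against 8.24 for the next. UHRF1 in the same library stood far above them, at 6.70 against 4.83. At lateral 14 d, 1 library of swine 5385 held the lowest FLT4 (1.97, next 4.39) and the lowest CCL21 (3.63, next 5.32). At apical 1-3 h, 1 library of swine 5385 held TOP2A at 0.19, with the next at 1.91. All 5 came from the same animal, in which MAGEB5 was at or below 0.69 in all 16 usable heart libraries.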

How the results depend on the processing

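The rule found 85 of the 100 members again with TMM-scaled CPM, 94 with a pseudocount of 0.5, 86 without the correlation limit, 88 with a share of at least 16% and 74 with the median at 2 d. With only the apical libraries of baseline, 2 d and 14 d that the study kept, which leave out swine 5385 at 2 d, it found 49, and without the apical libraries low in cardiomyocyte markers 45. Leaving out each 2 d library in turn gave 51 to 88, the lowest without swine 5385. Members called stayed at 0 in all 5 comparisons under every alternative run, including the replicate block with swine as the block and the leave-one-out fits (0 to 0). Genes called by DESeq2 were 4 (lateral 2 d against 14 d), 9 (lateral 2 d against 0-1 h) and 1 (blood), against 0. Reversals of single genes were SCUBE1 to 0.16 in lateral 2 d against 14 d with a share of at least 16%, and, without the swine 1644 library of lateral 0-1 h, SELP to 0.95 in lateral 2 d against 0-1 h (range when each library was left out -2.63 to 0.95) and NDC80 to 0.38 between regions at 0-1 h (range -2.18 to 0.38). The cause was not tested. In each comparison other than lateral 2 d against 14 d, the majority of members moved to the other side of 0 in at least 1 alternative, so no direction is given for them. The few libraries and 3 animals limit all tests.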
